A study of Homo sapiens with 4 samples.

Results

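The 37 genes described here make heme, break it down, or take up, store, move and sense iron. They were taken by symbol from a fixed list, and all 37 members of that list were found among the 28103 gene symbols of the count table. They were followed in HEL, a human erythroleukaemia line that the labels call a human erythroblast, in 2 poly(A) RNA libraries of the AFF4 knockdown genotype and 2 control libraries (Ctrl) of the wild-type genotype. The labels record no treatment for either group and do not say how the knockdown was made, or whether it is a clone or a pool. Nor do they say whether the libraries of a group were grown apart. The p-values thus measure how far these libraries differ, which may be technical only. AFF4 holds together the super elongation complex, which helps paused RNA polymerase II to enter elongation, and the question posed by the design is which transcripts differ when AFF4 is reduced.

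Heme is built along a path that begins and ends in the mitochondrion, with middle steps in the cytosol, and its last step inserts iron into the porphyrin ring. Erythroid cells take up that iron as transferrin bound to the transferrin receptor TFRC, carry it into mitochondria through mitoferrin, and use it for heme and for iron-sulfur clusters. The iron regulatory proteins, encoded by ACO1 and IREB2, bind a hairpin in certain messenger RNAs when iron is scarce. Bound in a 5′ UTR the protein blocks translation, and bound in the TFRC 3′ UTR it protects the transcript from decay, so RNA levels show only part of this control.

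The hairpins are shown because they are the letters that the iron regulatory proteins read in members of this list. A search of annotated UTRs on GRCh38 looked for a C, then 5 bases, then the loop letters CAGTG and 1 further base, then 5 bases able to pair with the first 5. Such a match was found in 159 of 19627 protein-coding genes (0.81%) and in 6 of the 37 members. A match describes letters only. Elements that depart from this pattern are missed, so a gene without a match is not shown to lack one, and the number of matches in a gene may be too low. Of these 6 genes, 5 are textbook carriers of the element, and for the remaining match, in the annotated 3′ UTR of TF, no role is claimed. The 30 bases around the hairpins of those 5 genes follow, with the 6-base loop in capitals. A second ALAS2 transcript carries the same hairpin with a different last flanking base.
FTH1 5′ UTR, chr11:61967573-61967602, minus strand: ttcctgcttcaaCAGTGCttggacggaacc
FTL 5′ UTR, chr19:48965335-48965364, plus strand: ctcttgcttcaaCAGTGTttggacggaaca
SLC40A1 5′ UTR, chr2:189580660-189580689, minus strand: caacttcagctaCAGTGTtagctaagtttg
ALAS2 5′ UTR, across an exon junction on chromosome X, minus strand: ttcgttcgtcctCAGTGCagggcaacagga
TFRC 3′ UTR, chr3:196050978-196051007, minus strand: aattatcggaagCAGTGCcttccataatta
TFRC 3′ UTR, chr3:196050574-196050603, minus strand: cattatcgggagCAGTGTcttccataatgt
TFRC 3′ UTR, chr3:196050509-196050538, minus strand: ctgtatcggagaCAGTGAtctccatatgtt
TFRC 3′ UTR, chr3:196050462-196050491, minus strand: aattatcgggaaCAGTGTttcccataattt

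Transcript levels are given as CPM, reads per 1e6 counted reads on library sizes scaled by the TMM method of edgeR, which treats most genes as unchanged. In total 17955867 and 16643610 reads were counted to genes in the knockdown libraries and 19129008 and 14903878 in the Ctrl libraries. AFF4 itself was at 18.7 and 18.9 CPM in the knockdown libraries, against 88.3 and 69.2 CPM in the Ctrl libraries, a log2 fold change of -2.07 ± 0.19 (SE) with an edgeR adjusted p of 0.0268, which was 0.0552 when genes had to reach 5 CPM in 2 libraries. The erythroid markers GATA1, KLF1, TAL1 and NFE2 and the fetal globins were detected in every library. The T cell markers CD3D, CD3E and CD3G and the fibroblast markers COL1A2 and COL3A1 were at 0 in every library. COL1A1, also of the fibroblast list, had 1 and 1 reads in the knockdown libraries and 2 and 3 in the Ctrl libraries. In knockdown and Ctrl the mean levels of the B cell marker CD79A were 2.12 and 1.85 CPM, and those of the epithelial marker EPCAM 1.63 and 1.41 CPM. The monocyte marker LYZ was at 48.6 to 52.0 CPM in the knockdown and 54.3 to 59.9 CPM in Ctrl, while CD14 did not exceed 0.134 CPM. The 11 erythroid markers summed here were GATA1, KLF1, TAL1, NFE2, EPOR, HBG1, HBG2, HBA1, HBA2, SLC4A1 and EPB42. Their summed level was 8657 and 8571 CPM in the knockdown libraries and 11819 and 14105 CPM in the Ctrl libraries. The sum was thus lower in the knockdown without overlap. Most of that sum is fetal globin, of which HBG1 fell (log2 fold change -0.86) and HBG2 had -0.68 without passing (edgeR adjusted p = 0.0641). SLC4A1 rose at a low level, with 2.38 and 2.61 CPM in the knockdown libraries against 0.482 and 0.469 CPM in the Ctrl libraries. EPOR had a log2 fold change of 0.76 ± 0.27 (SE) without passing (edgeR adjusted p = 0.251). Of the 11 markers, 3 lay higher without overlap (TAL1, EPOR and SLC4A1) and 2 lower (HBG1 and HBG2). Over all genes, 23.1% lay higher and 23.0% lower, so the lower sum does not describe the markers in general. Of 6 megakaryocyte markers 1 fell in edgeR, ITGB3, where 0.641% of all genes were called in either direction. The log2 fold changes of the 6 were positive for 1 and negative for 5, with a median of -0.62. Without overlap, 0 lay higher and 3 lower, beside the same shares of 23.1% and 23.0% over all genes. The sum of the 6 was 1519 and 1639 CPM in the knockdown libraries against 1645 and 2472 CPM in the Ctrl libraries. The part of these shifts in the results below was not tested. In bulk RNA a change in the share of cells that express a gene and a change in RNA per cell cannot be told apart.

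Of the 37 members, 36 passed the filter on low counts. HFE, a regulator of iron sensing that binds the transferrin receptor, was left out with 5 and 3 reads in the knockdown libraries and 3 and 3 in the Ctrl libraries. In edgeR's quasi-likelihood test over 13572 genes, with a call at a Benjamini-Hochberg adjusted p under 0.05, 1 member rose and 0 fell, against 0.641% of all genes called in either direction. At an unadjusted p under 0.05, 6 members were higher and 2 lower, where 6.79% of all genes were higher and 8.19% lower. The median log2 fold change of the 36 was 0.06, against -0.01 over all tested genes. Both knockdown libraries lay above both Ctrl libraries for 12 members and below for 10, where 23.1% of all genes lay above and 23.0% below. DESeq2 called 4 members, all higher, against 2.99% of all genes called. The limma-voom fit called 1 member, higher, and over all 13572 genes it called 53 higher and 39 lower.

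**Figure D1:**
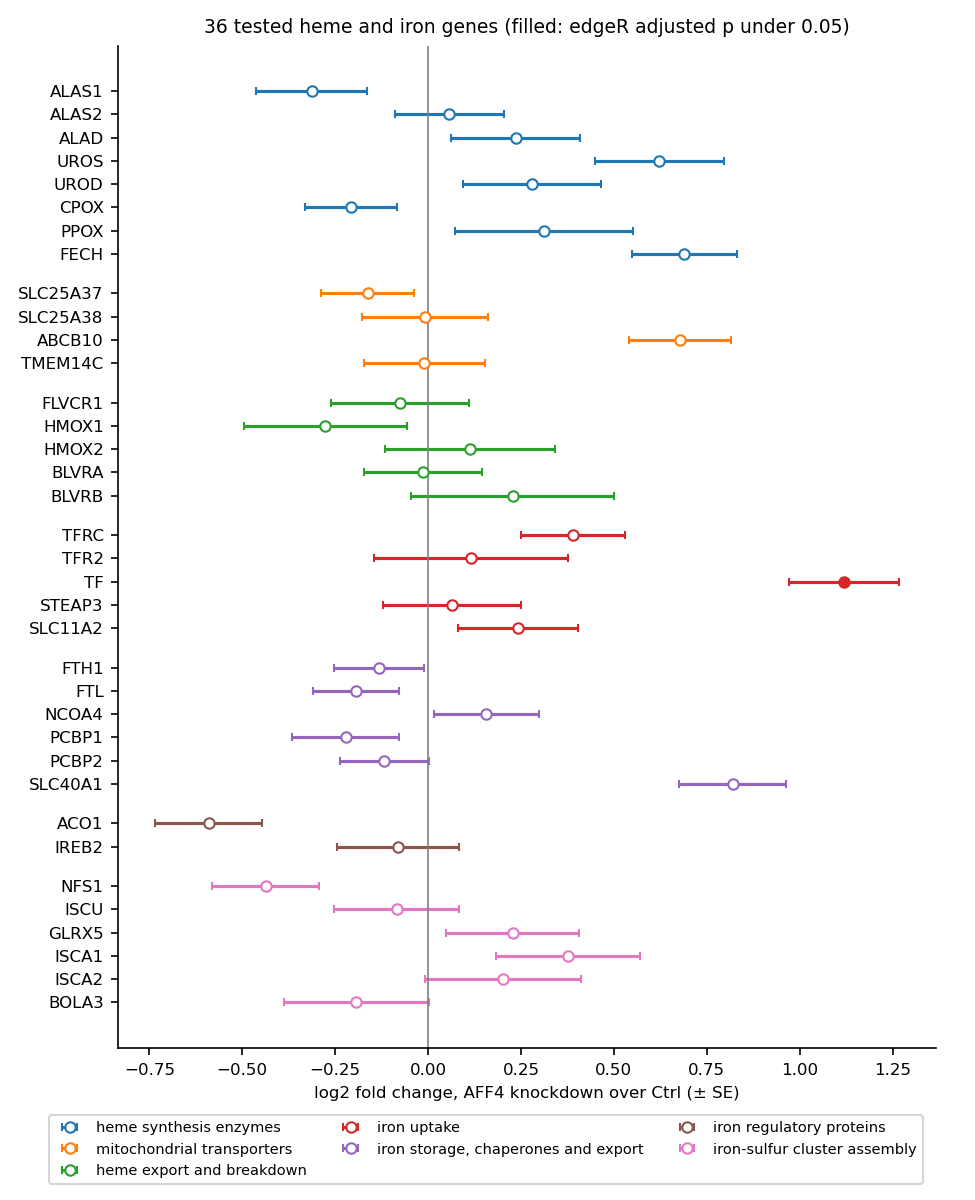
Log2 fold change of the AFF4 knockdown over Ctrl for the 36 tested members, grouped by role, with bars of ± SE from the edgeR fit of 2 libraries per group. TF, at 1.12, is the filled point that passed the edgeR test at an adjusted p under 0.05, and SLC40A1, FECH, ABCB10 and UROS at 0.82, 0.69, 0.68 and 0.62 and ACO1 at -0.59 lie next farthest from 0.

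The gene that rose was TF (chr3:133745956-133796640, plus strand), which encodes transferrin, the plasma carrier of iron that is best known as a product of the liver. On the same strand, SRPRB shares 112 bases and TFP1 191 bases with the TF exons (0.544% and 0.927% of them). How reads in these bases were counted is not known. TF had 137.8 and 130.1 CPM in the knockdown libraries, against 59.4 and 64.1 CPM in the Ctrl libraries. Both knockdown libraries stood above both Ctrl libraries, and the gap was many times the difference within either group. The log2 fold change was 1.12 ± 0.15 (SE, n = 2 each), a 2.17-fold higher level in the knockdown (edgeR adjusted p = 0.0387; DESeq2 adjusted p = 5.54e-06). The call was lost when genes had to reach 5 CPM in 2 libraries (edgeR adjusted p = 0.0669) and at a threshold of 0.01. It was also lost without knockdown 1 or knockdown 2. The log2 fold change stayed between 1.07 and 1.17 over the 15 alternatives, among which the threshold of 0.01 keeps the main fit and cannot move it.

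Of the 5 tested iron uptake genes all had a positive log2 fold change, with a median of 0.24, and TF was the 1 that passed. The receptor TFRC (chr3:196027183-196082189, minus strand), which brings iron-loaded transferrin into the cell, was the most abundant of the uptake genes. TFRC was at 936.4 and 926.2 CPM in the knockdown libraries, against 782.3 and 638.9 CPM in the Ctrl libraries. The groups did not overlap, but the Ctrl libraries differed from each other by a large part of the difference between groups. The log2 fold change was 0.39 ± 0.14 (SE) and did not pass (edgeR adjusted p = 0.263). TFR2, the second transferrin receptor and an iron sensor of liver and erythroid cells, was at 175.5 and 192.7 CPM in the knockdown libraries, between 121.6 CPM in Ctrl 1 and 218.6 CPM in Ctrl 2. The Ctrl libraries therefore enclosed the knockdown libraries. The log2 fold change of TFR2 was -0.25 without Ctrl 1 and 0.60 without Ctrl 2, so its sign turned with the Ctrl library used.

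The ferrireductase STEAP3 and the divalent metal transporter SLC11A2, which reduce endosomal iron and pass it to the cytosol, showed small differences. STEAP3 was at 73.7 and 78.6 CPM in the knockdown libraries, within the Ctrl range of 62.3 to 83.5 CPM. SLC11A2 was at 60.9 and 63.2 CPM in the knockdown libraries, against 55.3 and 49.7 CPM in the Ctrl libraries, without overlap. Their log2 fold changes were 0.06 ± 0.19 and 0.24 ± 0.16 (SE), and neither passed. An opposite-strand RNA, STEAP3-AS1, shares 500 exon bases with STEAP3, and no source used here gives the strand setting of the counting, so reads of the pair cannot be told apart.

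**Figure D2:**
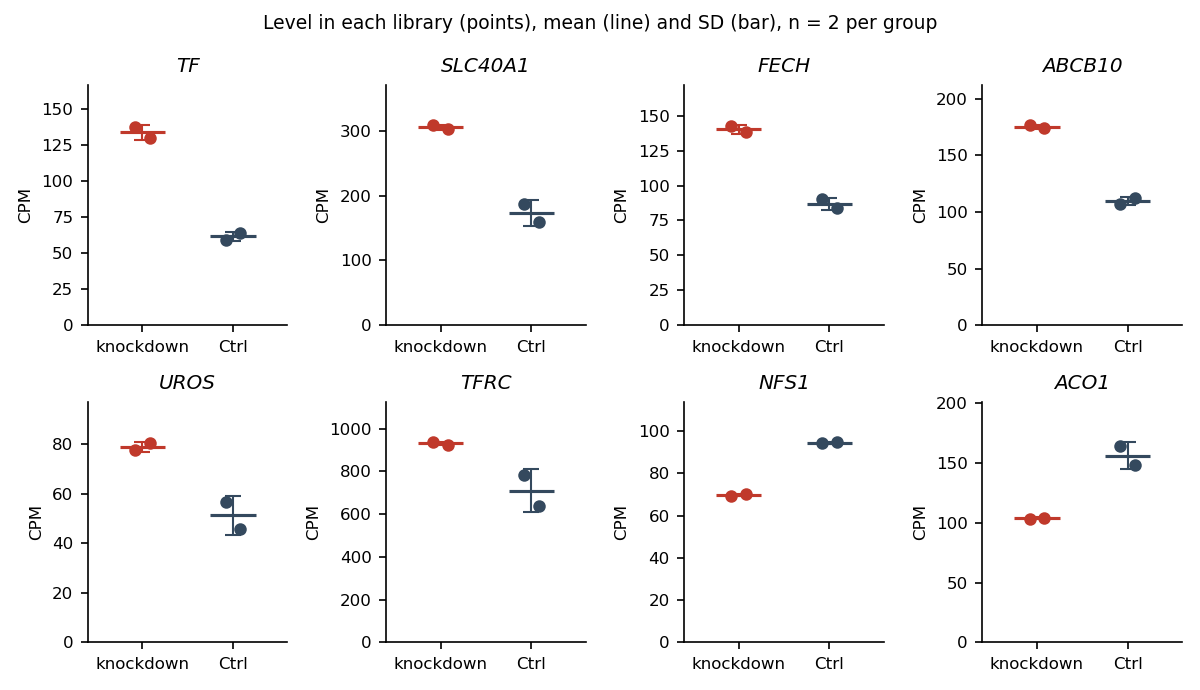
CPM in each library for the 8 members with an unadjusted edgeR p under 0.05, with the knockdown left of Ctrl in each panel, the mean as a line and the SD of 2 libraries as a bar. In all 8 panels the points of the groups do not overlap, TF, SLC40A1, FECH, ABCB10, UROS and TFRC being higher and NFS1 and ACO1 lower in the knockdown. The 8 were picked by p in these same libraries, so their separation is no further support. Over all genes, 23.1% lay higher and 23.0% lower without overlap.

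Iron leaves the cell through ferroportin, the product of SLC40A1 (chr2:189560579-189583758, minus strand), the only known cellular iron exporter of mammals. SLC40A1 was at 308.1 and 302.0 CPM in the knockdown libraries, against 186.8 and 158.8 CPM in the Ctrl libraries. The knockdown libraries were nearly equal and both lay well above both Ctrl libraries. The log2 fold change was 0.82 ± 0.14 (SE), which missed the threshold in edgeR (adjusted p = 0.0642) and passed it in DESeq2 (adjusted p = 0.00217). Over the 15 alternatives it ranged from 0.71 to 0.94.

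Of the 6 genes of iron storage, chaperoning and export, 2 had a positive and 4 a negative log2 fold change (median of the 6: -0.13). The ferritin genes, whose products form the shell that stores iron, lay slightly lower. FTL, the light chain and the most abundant member, was at 1223 and 1222 CPM in the knockdown libraries, against 1360 and 1438 CPM in the Ctrl libraries. FTH1, the heavy chain that oxidises iron, was at 508.3 and 506.1 CPM in the knockdown libraries, against 555.1 and 556.7 CPM in the Ctrl libraries. Neither gene overlapped between groups and neither passed, FTL having a log2 fold change of -0.19 ± 0.12 and FTH1 of -0.13 ± 0.12 (SE), at an edgeR adjusted p of 0.506 and 0.704. Per kilobase of transcript, FTL exceeded FTH1 by 3.37 and 3.38 times in the knockdown libraries and 3.43 and 3.61 times in the Ctrl libraries. The annotation names 25 pseudogenes of FTH1 and 16 of FTL, and BEST1 on the opposite strand covers 56.6% of the FTH1 exons, so the counts of both depend on how shared reads were treated.

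NCOA4, the receptor that delivers ferritin to lysosomes for iron release, was at 296.6 and 283.8 CPM in the knockdown libraries, against 280.9 and 239.9 CPM in the Ctrl libraries. The poly(C)-binding proteins PCBP1 and PCBP2, RNA-binding proteins that also act as iron chaperones, had log2 fold changes of -0.22 ± 0.14 and -0.12 ± 0.12 (SE). These 3 genes did not overlap between groups and did not pass (edgeR adjusted p = 0.7002 for NCOA4, 0.544 for PCBP1 and 0.738 for PCBP2). PCBP1 shares 45.4% of its exon bases with PCBP1-AS1 and PCBP2 shares 47.1% with MAP3K12, both on the opposite strand. PCBP2 also shares 27.2% with AC023509.1 on the same strand.

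ACO1 (chr9:32384603-32454769, plus strand) encodes the cytosolic aconitase, which becomes iron regulatory protein 1 when it loses its iron-sulfur cluster. ACO1 was at 103.1 and 104.2 CPM in the knockdown libraries, against 164.3 and 147.9 CPM in the Ctrl libraries. Both knockdown libraries were far below both Ctrl libraries. Its log2 fold change of -0.59 ± 0.14 (SE) was the lowest of the 36 and did not pass (edgeR adjusted p = 0.121; DESeq2 adjusted p = 0.0642), although it was negative in all 15 alternatives, from -0.67 to -0.51. IREB2, the other iron regulatory protein, was at 177.0 and 169.5 CPM in the knockdown libraries, inside the Ctrl range of 160.5 to 205.9 CPM. The log2 fold change of IREB2 was -0.08 ± 0.16 (SE). Whether ACO1 and IREB2 differ in their response was not tested.

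**Figure D3:**
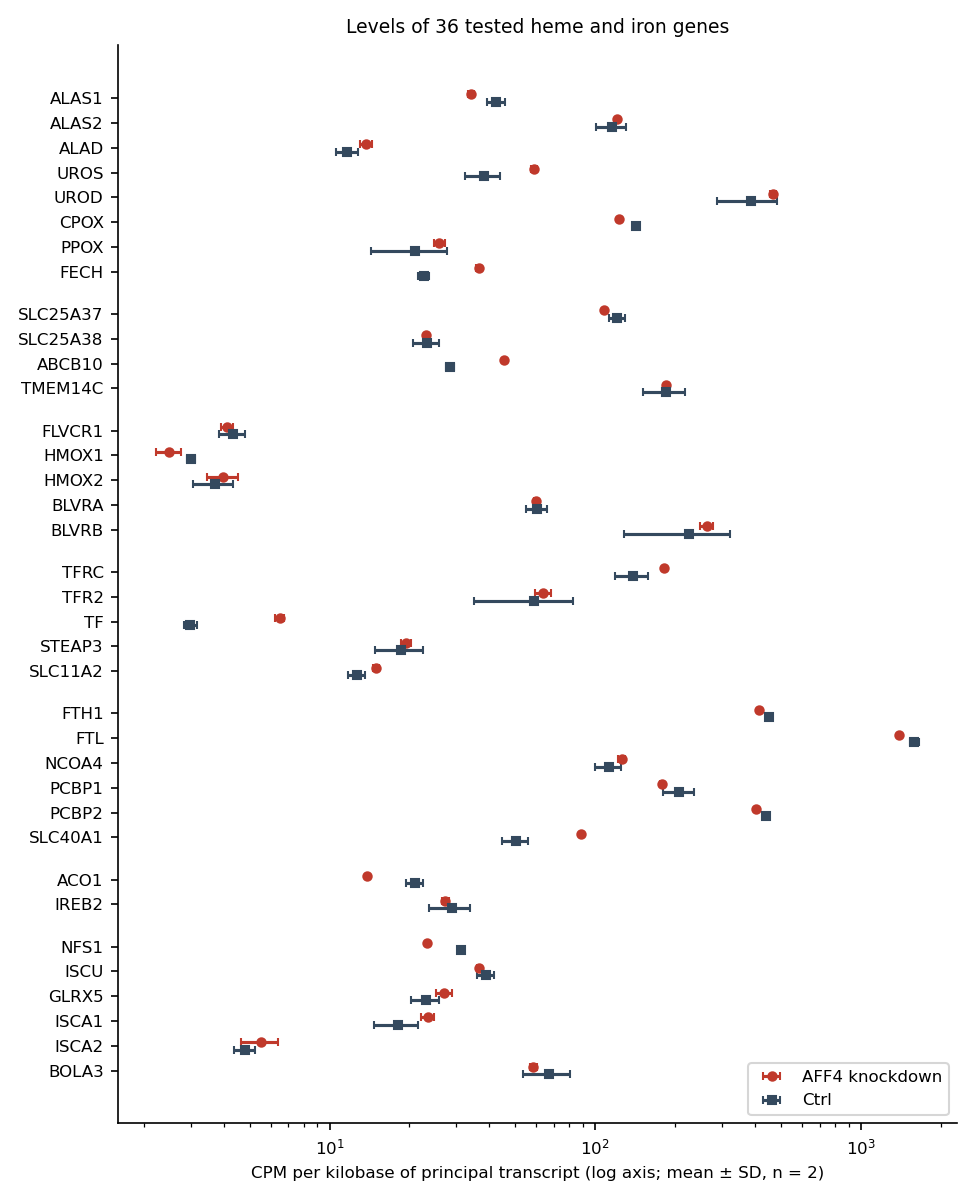
Mean level of the 36 tested members in CPM per kilobase of the principal annotated transcript, on a log axis, with bars of ± SD over 2 libraries and the knockdown drawn above Ctrl for each gene. FTL stands highest at 1392 in the knockdown and 1593 in Ctrl. HMOX1 is lowest in the knockdown at 2.49, and TF is lowest in Ctrl, just below the 3.01 of HMOX1. The level of TF is divided by an annotated transcript of 20602 bases. The wide Ctrl bars of UROD, PPOX, BLVRB and TFR2 mark genes on which the Ctrl libraries disagree.

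Of the 8 enzymes of heme synthesis listed, 6 had a positive and 2 a negative log2 fold change (median of the 8: 0.26), and 0 passed in edgeR (2 were higher with unadjusted p below 0.05, and DESeq2 called 1). FECH (chr18:57548283-57586772, minus strand), the ferrochelatase that inserts iron into protoporphyrin, was at 142.7 and 138.1 CPM in the knockdown libraries, against 90.1 and 84.0 CPM in the Ctrl libraries. UROS (chr10:125784980-125823285, minus strand), which closes the porphyrin ring, was at 77.5 and 80.4 CPM in the knockdown libraries, against 56.7 and 45.8 CPM in the Ctrl libraries. For both genes the knockdown libraries stood clear above the Ctrl libraries. Their log2 fold changes were 0.69 ± 0.14 and 0.62 ± 0.17 (SE). FECH missed the edgeR threshold and passed in DESeq2 (adjusted p = 0.0872 and 0.0182), and UROS passed in neither (adjusted p = 0.161 and 0.0854).

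The first and rate-limiting step is run by ALAS1 in most tissues and by ALAS2 in erythroid cells. ALAS2 was at 243.7 and 245.6 CPM in the knockdown libraries, within the Ctrl range of 213.6 to 256.6 CPM. ALAS1 was at 78.9 and 82.1 CPM in the knockdown libraries, against 94.8 and 105.3 CPM in the Ctrl libraries, without overlap. ALAS2 had a log2 fold change of 0.06 ± 0.15 and ALAS1 of -0.31 ± 0.15 (SE), with edgeR adjusted p of 0.912 and 0.392. Per kilobase of transcript, ALAS2 exceeded ALAS1 by 3.59 and 3.48 times in the knockdown libraries and 2.62 and 2.83 times in the Ctrl libraries. That ratio does not depend on the scaling of a library, and its values did not overlap between groups. It was not tested, and levels without overlap are common, at 23.1% of all genes higher and 23.0% lower.

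The remaining enzymes had log2 fold changes of both signs. UROD, the decarboxylase that follows UROS and the most abundant enzyme of the path, was at 598.0 and 621.2 CPM in the knockdown libraries, against 410.8 CPM in Ctrl 1 and 593.9 CPM in Ctrl 2. The knockdown libraries barely cleared Ctrl 2, and the Ctrl libraries differed by more than the groups did. PPOX, which oxidises protoporphyrinogen, was at 43.6 and 46.7 CPM in the knockdown libraries and at 28.2 CPM in Ctrl 1 and 44.6 CPM in Ctrl 2, so its groups overlapped. ALAD, the second enzyme, had a log2 fold change of 0.24 ± 0.17 (SE), and CPOX, which acts just before PPOX, had -0.21 ± 0.12 (SE). UROD and PPOX had 0.28 ± 0.19 and 0.31 ± 0.24 (SE), and the edgeR adjusted p of these 4 genes lay between 0.504 and 0.627.

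Of the 4 mitochondrial transporters, ABCB10 had a positive log2 fold change and the other 3 lay below 0. ABCB10 (chr1:229516582-229558695, minus strand), an inner-membrane transporter needed for heme synthesis in erythroid cells, was at 176.5 and 174.0 CPM in the knockdown libraries, against 107.1 and 112.2 CPM in the Ctrl libraries. Its groups were wide apart and each was tight, and the log2 fold change was 0.68 ± 0.14 (SE), with an adjusted p of 0.0857 in edgeR and 0.0191 in DESeq2. SLC25A37, the erythroid mitoferrin that imports iron and that ABCB10 is known to stabilise in mouse erythroid cells, was at 520.0 and 522.1 CPM in the knockdown libraries, against 555.2 and 611.3 CPM in the Ctrl libraries. Its log2 fold change was -0.16 ± 0.13 (SE; edgeR adjusted p = 0.634). The glycine importer SLC25A38 and the porphyrinogen transporter TMEM14C had -0.01 ± 0.17 and -0.01 ± 0.16 (SE), with TMEM14C at 205.1 and 204.9 CPM in the knockdown libraries, between 232.6 CPM in Ctrl 1 and 180.0 CPM in Ctrl 2. Without Ctrl 1 the log2 fold change of TMEM14C was 0.19 and without Ctrl 2 it was -0.18, so its sign turned with the Ctrl library used.

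The promoters of TF, SLC40A1, FECH and ABCB10 are shown because DESeq2 called these 4 members higher, and that of ALAS2 because ALAS2 is a known target of the erythroid factor GATA1 and holds a match to its letters. The sequences come from RefSeq on GRCh38.p14 and run from 250 bases before to 50 bases after the start of transcription in RefSeq. That start differs from the GENCODE gene ends printed for these genes, lying 437 bases inside the gene for TF and 2972 bases inside it for SLC40A1. Capitals mark every match, on either strand, to 7 motifs. The GATA letters are AGATAA, its variant TGATAA and the related form AGATAG. The others are the KLF-type letters CACCC, the antioxidant response letters TGANNNNGC, the MARE-like letters TGACTCA and the E-box CACGTG. In ALAS2 the match to TGACTCA lies inside that to TGANNNNGC, and the hairpin shown above starts inside the window.
TF, chr3:133746143-133746442, plus strand: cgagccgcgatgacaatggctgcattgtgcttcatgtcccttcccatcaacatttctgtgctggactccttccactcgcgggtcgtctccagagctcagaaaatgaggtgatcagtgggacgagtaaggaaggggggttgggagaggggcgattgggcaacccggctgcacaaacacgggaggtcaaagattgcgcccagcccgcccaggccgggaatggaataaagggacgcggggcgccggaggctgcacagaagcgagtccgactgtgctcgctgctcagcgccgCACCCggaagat
SLC40A1, chr2:189580737-189581036, minus strand: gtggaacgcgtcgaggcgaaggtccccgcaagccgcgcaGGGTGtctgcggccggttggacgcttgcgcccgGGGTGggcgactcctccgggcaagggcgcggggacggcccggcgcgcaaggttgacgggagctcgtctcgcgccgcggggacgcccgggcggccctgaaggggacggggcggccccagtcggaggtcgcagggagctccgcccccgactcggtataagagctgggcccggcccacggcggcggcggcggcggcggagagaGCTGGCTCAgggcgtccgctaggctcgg
FECH, chr18:57586653-57586952, minus strand: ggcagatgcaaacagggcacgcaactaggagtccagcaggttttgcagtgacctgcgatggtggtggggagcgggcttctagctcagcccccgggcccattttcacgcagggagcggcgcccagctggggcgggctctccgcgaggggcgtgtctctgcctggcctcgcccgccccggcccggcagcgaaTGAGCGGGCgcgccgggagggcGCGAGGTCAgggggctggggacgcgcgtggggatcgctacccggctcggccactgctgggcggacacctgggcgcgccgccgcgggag
ABCB10, chr1:229558658-229558957, minus strand: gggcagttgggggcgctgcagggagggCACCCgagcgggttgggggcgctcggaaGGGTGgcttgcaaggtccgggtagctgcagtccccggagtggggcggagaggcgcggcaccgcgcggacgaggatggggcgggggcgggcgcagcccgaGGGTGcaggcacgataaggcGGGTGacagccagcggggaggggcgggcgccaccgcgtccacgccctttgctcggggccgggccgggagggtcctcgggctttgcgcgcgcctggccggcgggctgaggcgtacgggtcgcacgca
ALAS2, chrX:55030928-55031227, minus strand: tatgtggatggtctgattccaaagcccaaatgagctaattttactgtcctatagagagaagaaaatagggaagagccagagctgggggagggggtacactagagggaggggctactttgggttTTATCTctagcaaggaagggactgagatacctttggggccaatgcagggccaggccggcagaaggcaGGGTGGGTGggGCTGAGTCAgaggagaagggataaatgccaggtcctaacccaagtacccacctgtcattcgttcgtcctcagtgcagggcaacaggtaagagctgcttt

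Of the 32 members with a promoter in that table, 5 held GATA letters, where 21.2% of 35116 promoters did, and 27 held CACCC, where 59.9% did. TGANNNNGC was found in 10 members and in 41.8% of all promoters, TGACTCA in 1 and 4.95%, and CACGTG in 2 and 7.26%. The promoters of TF, SLC40A1, FECH and ABCB10 held 0 GATA matches. FECH had 2 matches to TGANNNNGC and 0 to CACCC, ABCB10 had 4 to CACCC, SLC40A1 had 2 to CACCC and 1 to TGANNNNGC, and TF had 1 to CACCC. A missing match says only that these letters are not in this window.

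Genes that export or degrade heme had 0 of 5 members past edgeR, limma-voom or DESeq2, and 0 of 5 had an unadjusted edgeR p below 0.05. HMOX1, the inducible heme oxygenase, was low, at 4.20 and 4.87 CPM in the knockdown libraries and 5.62 and 5.36 CPM in the Ctrl libraries, and its groups did not overlap. The constitutive HMOX2 was also low, at 7.74 and 9.38 CPM in the knockdown libraries, against 6.96 and 8.90 CPM in the Ctrl libraries. HMOX1 had a log2 fold change of -0.28 ± 0.22 and HMOX2 of 0.11 ± 0.23 (SE), with edgeR adjusted p of 0.645 and 0.891. The biliverdin reductase BLVRB was at 220.5 and 238.5 CPM in the knockdown libraries, between 136.9 CPM in Ctrl 1 and 255.5 CPM in Ctrl 2. Its fold change turned with the Ctrl library used, from -0.15 without Ctrl 1 to 0.74 without Ctrl 2 on the log2 scale. The paralogue BLVRA and the heme exporter FLVCR1 had log2 fold changes of -0.01 ± 0.16 and -0.08 ± 0.18 (SE).

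Iron-sulfur clusters are assembled on the scaffold ISCU with sulfur from the cysteine desulfurase NFS1 and are passed on by GLRX5, ISCA1, ISCA2 and BOLA3. Of these 6 genes, 3 had a positive and 3 a negative log2 fold change (median of the 6: 0.06). NFS1 (chr20:35668055-35699359, minus strand) was at 69.5 and 70.1 CPM in the knockdown libraries, against 94.3 and 94.9 CPM in the Ctrl libraries. The libraries of each group were almost equal and the groups were well apart. The log2 fold change of NFS1 was -0.44 ± 0.14 (SE) and did not pass (edgeR adjusted p = 0.224 and DESeq2 adjusted p = 0.306). On the same strand, AL109827.1 shares 289 bases with the NFS1 exons (7.66% of them). ISCU was at 36.6 and 35.9 CPM in the knockdown libraries, against 40.5 and 36.4 CPM in the Ctrl libraries, and the groups overlapped. ISCA1 had a log2 fold change of 0.38 ± 0.19, GLRX5 of 0.23 ± 0.18, ISCA2 of 0.20 ± 0.21 and BOLA3 of -0.19 ± 0.20 (SE), and their edgeR adjusted p lay between 0.433 and 0.745. ISCA1 and GLRX5 were higher in both knockdown libraries than in both Ctrl libraries, while ISCA2 and BOLA3 overlapped.

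The Ctrl libraries were less alike than the knockdown libraries, and this touched the members unevenly. Over all genes, the chi-square statistic per degree of freedom was 2.50 between the knockdown libraries and 44.0 between the Ctrl libraries, where counting noise alone gives about 1. For 18 of the 36 members the Ctrl libraries differed by more than the knockdown differed from Ctrl. Across the 36 genes, which are not independent replicates, Spearman's rho between transcript GC content and the log2 ratio of the libraries of a group was 0.61 for knockdown 2 over knockdown 1 and 0.71 for Ctrl 2 over Ctrl 1. The median absolute log2 ratio was 0.0523 within the knockdown and 0.227 within Ctrl. TF, FECH, ABCB10, NFS1, CPOX and the ferritin genes differed between the Ctrl libraries by at most 0.11 in absolute log2 value.

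**Figure D4:**
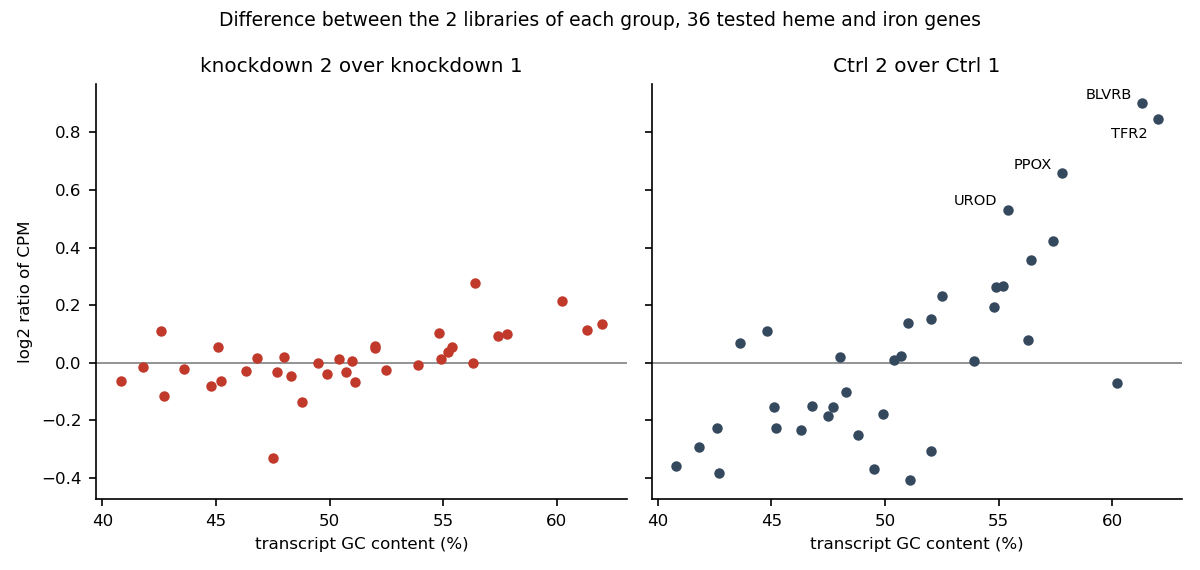
Log2 ratio of the second to the first library within the knockdown (left) and within Ctrl (right) against transcript GC content, with 1 point for each of the 36 tested members. The knockdown points lie between -0.33 and 0.28, and the Ctrl points between -0.41 and 0.90 with BLVRB, TFR2, PPOX and UROD at the upper end.

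With a lowess trend of level on transcript GC content removed from each library, edgeR called 13 members higher and 7 lower, against 16.2% and 16.5% of all genes. The higher ones were ABCB10, ALAD, BLVRB, FECH, ISCA1, NCOA4, PPOX, SLC11A2, SLC40A1, TF, TFRC, UROD and UROS, and the lower ones ACO1, ALAS1, CPOX, FTL, NFS1, PCBP1 and SLC25A37. The log2 fold changes of TF, SLC40A1, FECH, ABCB10, UROS and ACO1 were then 1.11, 0.81, 0.68, 0.67, 0.60 and -0.60. Leaving out Ctrl 1 gave 11 members higher and 8 lower, where 21.5% of all genes were called higher and 22.5% lower. Leaving out Ctrl 2 gave 13 and 8 members, where 24.5% and 23.9% of all genes were called. Leaving out knockdown 1 gave 0 and 0 members (0.252% and 0.0791% of all genes), and leaving out knockdown 2 gave 0 and 0 (0.258% and 0.108%). Without Ctrl 1 the log2 fold changes of TF, SLC40A1, FECH, ABCB10, UROS and ACO1 were 1.07, 0.94, 0.74, 0.65, 0.79 and -0.51. Without Ctrl 2 they were 1.17, 0.71, 0.64, 0.71, 0.48 and -0.67. In both of these fits the spread came from the knockdown pair alone.

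Beyond the members, 65 other genes of heme and iron handling and of the antioxidant response were listed, of which 54 were tested. Of these, 0 rose and 1 fell in edgeR, against 0.641% of all genes called in either direction, and the median log2 fold change was -0.03. At an unadjusted edgeR p below 0.05, 5 were higher and 4 lower, where 6.79% of all genes were higher and 8.19% lower. DESeq2 called 3 higher and 1 lower, against 2.99% of all genes called. The gene that fell was SNX3, a sorting nexin that recycles the transferrin receptor in erythroid cells, as shown in mouse. SNX3 was at 91.5 and 93.8 CPM in the knockdown libraries, against 232.2 and 190.1 CPM in the Ctrl libraries, and its log2 fold change was -1.19 ± 0.16 (SE) with an edgeR adjusted p of 0.0387. The call was lost when genes had to reach 5 CPM in 2 libraries (edgeR adjusted p = 0.0573) and at a threshold of 0.01. It was also lost without knockdown 1 or knockdown 2.

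FAM210B, a mitochondrial protein needed for erythroid heme synthesis, was at 55.8 and 53.9 CPM in the knockdown libraries, against 31.1 and 25.4 CPM in the Ctrl libraries. EPAS1, the oxygen-sensing factor HIF-2α whose transcript is also known to carry the hairpin, was at 10.7 and 10.9 CPM in the knockdown libraries, against 3.802 and 5.09 CPM in the Ctrl libraries. SLC39A8, a zinc and iron importer, was at 297.3 and 288.7 CPM in the knockdown libraries, against 199.4 and 152.4 CPM in the Ctrl libraries. Each of the 3 stood higher in both knockdown libraries, with log2 fold changes of 0.96 ± 0.18, 1.29 ± 0.23 and 0.74 ± 0.17 (SE), and none passed in edgeR (adjusted p = 0.0753, 0.0652 and 0.105). They are the 3 related genes that DESeq2 called higher (adjusted p = 0.00157, 0.00585 and 0.0172). In the same lists the heme importer SLC48A1 had 0.44 ± 0.20, the iron importer SLC39A14 had -0.47 ± 0.15, and the iron-sulfur genes LYRM4, FDX1 and HSCB had 0.46 ± 0.17, -0.50 ± 0.22 and 0.44 ± 0.21 (SE). Of 7 tested NRF2 and BACH1 targets other than the members, 0 passed in edgeR (1 was higher with unadjusted p below 0.05, and DESeq2 called 0). Their log2 fold changes were positive for 2 and negative for 5, with a median of -0.23. Without overlap, 2 lay higher and 4 lower, where 23.1% of all genes lay higher and 23.0% lower. The 3 with the smallest p, GCLC, TXNRD1 and OSGIN1, had log2 fold changes of 0.42 ± 0.16, 0.23 ± 0.13 and -0.84 ± 0.40 (SE), the last on 17 and 13 reads in the knockdown libraries against 21 and 30 in the Ctrl libraries.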

How the data were processed

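Per the labels' protocols, poly(A) RNA was captured on oligo(dT) beads, made into strand-marking dUTP libraries and amplified by PCR. The deposited values are raw counts of reads per gene symbol. The submitters' processing notes name fastp 0.13.1, HISAT2 2.1.0, featureCounts 1.6.1 and hg38. No source used here gives the annotation, the strand setting or the treatment of reads with several matches, and these set how reads are split between paralogs, pseudogenes and overlapping genes. The 4 columns matched the samples by name.

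The counts were fitted with edgeR 4.0.16 in R 4.3.3: filterByExpr (minimum count 10, minimum total 15), TMM scaling, group as the only term, quasi-likelihood F test, Benjamini-Hochberg over 13572 genes. The SE is the absolute log2 fold change over the square root of F, and n is 2 libraries a group. Alternatives used other scalings and filters, DESeq2 1.42.0, limma-voom (limma 3.58.1), a replicate block, a GC correction (lowess span 0.4) and each library left out. A further alternative, the threshold of 0.01, keeps the main fit and can change calls only. The plain edgeR, DESeq2 and limma-voom fits were tested on simulated counts. Those counts had the same spread in both groups and no GC trend, unlike these libraries. The replicate block, the GC correction and the fits with a library left out were not simulated. Members and lists were chosen with earlier results of these data known. The members with values in each library are those called or with an unadjusted p under 0.05 and the most abundant of each role, and others were added after their values were seen. Of the related genes, those called and otherwise the 3 per list with the smallest p were named. Positions, lengths of the principal (APPRIS) transcript, GC content and UTRs are from GENCODE v29 on GRCh38, the assembly also called hg38. Of the symbols, 25862 matched by name and 155 by gene ID, and 97.4% of tested genes had a GC value. The annotated principal transcript of TF is 20602 bases long, so its level per kilobase is low. The hairpin search was added after the data were seen. A planned comparison of paralogs by protein sequence was not made here. Of the erythroid marker list, 1 gene is not reported here.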

Additional observations from a re-analysis of the deposited data

How the results depend on the processing

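Over all genes, 47 were higher and 40 lower. The counts were 328 and 406 with no filter, 1 and 4 with at least 5 CPM in at least 2 libraries, 188 and 218 in DESeq2, 408 and 480 with the replicate block, 2203 and 2244 with the GC correction, 2806 and 2797 with the GC correction and the block, and 1 and 2 at an adjusted p under 0.01. With a library left out they ran from 35 to 3407 higher and from 11 to 3315 lower. Among the members, 1 higher and 0 lower became 4 and 1 with no filter, 0 higher with the 5 CPM filter or at 0.01, 4 higher in DESeq2, 5 and 1 with the block, 13 and 7 with the GC correction, 15 and 9 with both, and from 0 to 13 higher and 0 to 8 lower with a library left out. Among the related genes, 0 higher and 1 lower became 3 higher with no filter, in DESeq2 or with the block, 13 and 11 with the GC correction, 16 and 12 with both, 0 lower with the 5 CPM filter or at 0.01, and from 0 to 19 higher and 0 to 20 lower with a library left out. Without a Ctrl library the spread is estimated from the knockdown pair alone, which was the tighter, and the cause of the other shifts was not tested. In the labels, replicates of the groups share a number and no named batch, and so the block was not used. The deviations of the first replicates from their group means correlated at 0.285 across genes. Over the members, the ratio of replicate 2 to replicate 1 rose with GC content in both groups (Spearman's rho 0.61 in the knockdown and 0.71 in Ctrl). Whether the replicates were paired is not stated and was not tested.

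Some members near no change turned in sign. SLC25A38 was at 0.00369 with upper quartile and 0.0202 with library-size scaling, TMEM14C at 0.00247, 0.0217 and, with the block, 0.00161, and BLVRA at 0.0172 with library-size scaling. With a library left out the log2 fold change ran from -0.066 to 0.19 for ALAS2, -0.12 to 0.11 for SLC25A38, -0.18 to 0.19 for TMEM14C, -0.19 to 0.045 for FLVCR1, -0.058 to 0.29 for HMOX2, -0.10 to 0.083 for BLVRA, -0.15 to 0.74 for BLVRB, -0.25 to 0.60 for TFR2, -0.13 to 0.29 for STEAP3, -0.25 to 0.11 for IREB2 and -0.38 to 0.030 for BOLA3. The median of the members stayed positive, from 0.01 to 0.11. HMOX1, HMOX2 and the untested HFE lay under 10 CPM in every library, where counting error limits what can be seen.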
